A study of Ovis aries with 12 samples.

Results

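The miRNAs miR-199 and miR-214 were followed in cultured endothelial cells of the main pulmonary artery of lambs. Entries were taken by name: an entry belonged here if any of its joined names was miR-199a, miR-199b, miR-199 or miR-214 after the species prefix, arm and copy number were dropped. This gave 8 of the 470 entries in the count table, 3 of miR-199 and 5 of miR-214. The rule reads names and no counts.

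In human and mouse, DNM3OS is a non-coding transcript that runs opposite to the dynamin gene DNM3 and is cut into miR-199a and miR-214. It is known for activity in mesenchymal cells, in fibroblasts and in fibrosis, and mouse work places it under the transcription factor TWIST1. Further miR-199 hairpins lie in introns of DNM1 and DNM2 in human and mouse. Because the 3p arm is the same for miR-199a and miR-199b, its reads cannot be assigned to a hairpin. In RefSeq's sheep genes (ARS-UI_Ramb_v3.0), the hairpin oar-mir-199a lies within DNM3 and outside DNM1 and DNM2. The label of DNM3OS miRNAs thus covers, in part, the miR-199 3p reads, and it covers miR-214 by its place in human and mouse. No sheep position of miR-214 is given here. In human, miR-199b belongs to the DNM1 hairpin.

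The cells came from 6 control lamb cultures with sham surgery (libraries 1 to 6) and 6 cultures of lambs with persistent pulmonary hypertension of the newborn, PPHN (libraries 7 to 12). PPHN was produced by in utero ligation of the ductus arteriosus, with fetal surgery at about 125 days of gestation and a ligation of 5 to 7 days that lasted until delivery. All cells were released with 0.1% collagenase, selected on beads against CD31 and grown in medium with serum to passages 2 to 5, so what was measured is cultured cells and not the vessel. Whether every library stands for its own lamb is not stated in the labels. The p-values therefore rest on the spread of the libraries, which may be technical in part.

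Totals over the listed entries ranged from 2250077 to 17740932 counts per library. Control 2, PPHN 8 and PPHN 11 had the lowest totals, at most 4101316 counts against at least 4697471 in the other 9 libraries. These 3 libraries also went against the endothelial label. The abundant endothelial entry mmu-miR-126b-3p, taken beside the miR-126 list after its values were seen, was between 161 and 195 CPM (counts scaled to a common library total) in all 3. Its level in the other 9 libraries was 10588 to 98168 CPM. The within-group spread of the family's main entries is given with and without PPHN 8 and PPHN 11. The main group comparisons are given with and without all 3 libraries.

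The strongest entries of the family were oar-miR-199a-3p and bta-miR-3604. The sheep entry oar-miR-199a-3p, a miRNA known in human cells to act on the growth regulators MTOR and MET, had 225001 counts over all libraries and ranked 42 of 468 tested entries by mean level. The entry bta-miR-3604, which belongs here through its joined name ipu-miR-199b and whose names give no arm, had 276039 counts and ranked 33. Together they held 42.9% and 52.6% of all counts of the 8 entries. The counts of bta-miR-3604 were 1.16 to 1.40 times those of oar-miR-199a-3p in every library, with a median ratio of 1.22. Whether the 2 entries share reads was not tested, and how the authors treated reads that match several entries is not given in the sources used here.

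Across the controls, oar-miR-199a-3p stood at 1408 CPM at the lowest (control 5), 2505 CPM at the median and 8334 CPM at the highest (control 3). In PPHN libraries it stood at 55.4 CPM at the lowest (PPHN 11), 1926 CPM at the median and 4118 CPM at the highest (PPHN 12). The groups overlapped, and only PPHN 8 and PPHN 11 lay below the lowest control. PPHN 8 was at 687 CPM, 2.05-fold below control 5, and PPHN 11 was 25.4-fold below control 5. PPHN 11 had 137 reads of the entry, or 60.9 CPM before scaling, with an exact 95% interval of 51.1 to 72.0 CPM that covers counting error only. Across control 1, control 2, control 4 and control 6 the level was 2011 to 3294 CPM, so control 3 alone lay far above the rest of its group.

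The level of bta-miR-3604 had the same lowest and highest libraries, with 1673 CPM at the lowest, 3195 CPM at the median and 10191 CPM at the highest in control. In PPHN it was 77.6 CPM at the lowest, 2290 CPM at the median and 4877 CPM at the highest. The lowest of all was PPHN 11 and the highest control 3.

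Entries of miR-214 had far fewer reads than oar-miR-199a-3p and bta-miR-3604. The 3p arm, counted in bta-miR-214 and known in human cells to act on EZH2, had 9517 counts in all and ranked 145 of 468. It stood at 71.4 CPM at the lowest (control 5), 93.4 CPM at the median and 336 CPM at the highest (control 3) in control. In PPHN it ranged from no count in PPHN 11 through a median of 80.1 CPM to 278 CPM in PPHN 12. Apart from PPHN 8 and PPHN 11, PPHN 9 at 71.1 CPM was just under the lowest control and the other 3 PPHN libraries lay within the control range.

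PPHN 8 held 25 reads of bta-miR-214, or 8.35 CPM, which was 8.56-fold below the lowest control. PPHN 11 held 0 reads among 2250077, which allows a level of up to 1.33 CPM before scaling (3 counts). Against the same 3 counts after scaling, PPHN 11 was at least 58.9-fold lower than control 5. Neither library lacked reads of the family altogether, since both held oar-miR-199a-3p.

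The 5p arm of miR-214, counted in hsa-miR-214-5p, followed the 3p arm at a lower level. Its control libraries were at 23.0 CPM at the lowest, 33.1 CPM at the median and 112 CPM at the highest. Its PPHN libraries ran from 0 counts in PPHN 11 through a median of 28.3 CPM to 87.9 CPM in PPHN 12, with PPHN 8 at 4.34 CPM from 13 reads. A second 3p entry, cgr-miR-214-3p, had 6803 counts and ran from 45.5 to 236 CPM over the controls and from 0.404 to 193 CPM over the PPHN libraries. The lowest of these PPHN values is 1 read in PPHN 11. In the 10 libraries other than PPHN 8 and PPHN 11, bta-miR-214 had 1.22 to 1.57 times the counts of cgr-miR-214-3p, and whether they share reads was not tested.

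Fish-named miR-214 entries were near the floor of detection. The catfish entry ipu-miR-214 had 406 counts in all and lay between 0 and 17.0 CPM. The medaka entry ola-miR-214 had 221 counts in all and lay between 0 and 7.21 CPM. Both reached their highest level in control 3, as the abundant entries did, and counting error bears on each of their values.

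**Figure D1:**
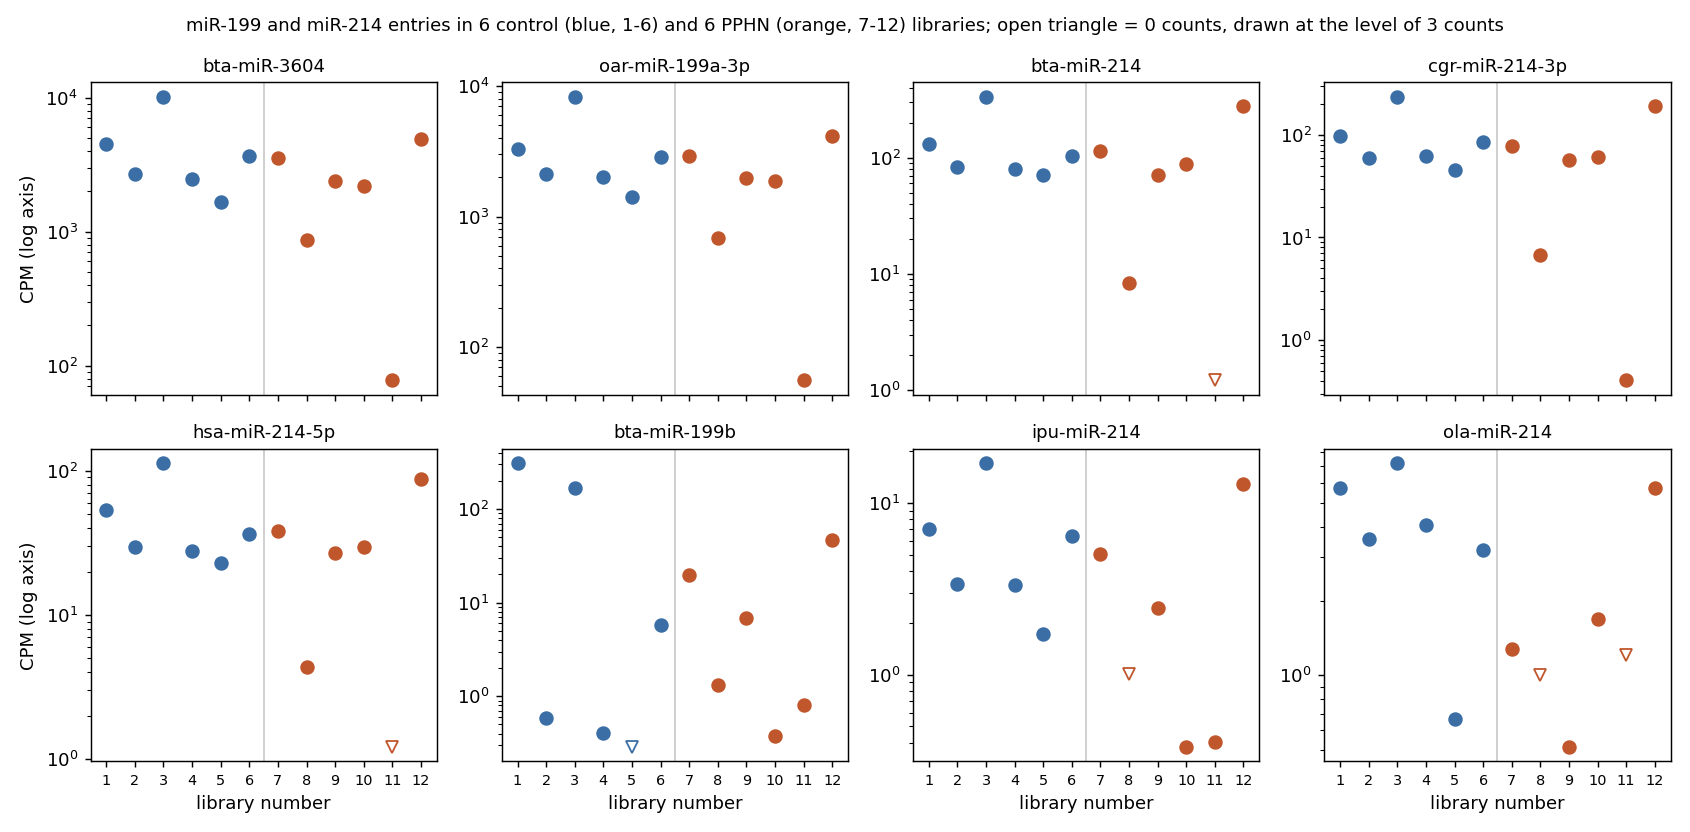
Level of each of the 8 entries (CPM after TMM scaling, log axis) by library number, with control libraries 1 to 6 in blue and PPHN libraries 7 to 12 in orange. Open triangles mark 0 counts, drawn at the level of 3 counts, so that a single read can lie below them; PPHN 8 and PPHN 11 are lowest for oar-miR-199a-3p (687 and 55.4 CPM) and control 3 is highest (8334 CPM).

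The entry bta-miR-199b, which also carries the name hsa-miR-199b-5p, followed the others less closely. Its Spearman's rho of log2 CPM with them ran from 0.47 (ola-miR-214) to 0.74 (oar-miR-199a-3p). Other pairs of the family had a rho of 0.83 to 0.99. The entry bta-miR-199b is the 5p arm of miR-199b, whose hairpin lies in DNM1 in human. Control 1 and control 3 were at 308 and 170 CPM (1445 and 1059 reads), while the control median was 3.16 CPM and control 5 had 0 reads. In PPHN it was at 0.377 CPM at the lowest (PPHN 10), 4.06 CPM at the median and 46.8 CPM at the highest (PPHN 12). Its highest library was control 1, which for oar-miR-199a-3p was the second highest control at 3294 CPM, below control 3 at 8334 CPM.

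High and low levels of bta-miR-199b divided the libraries as those of oar-miR-143 did, a miRNA of contractile vessel cells. Control 1, control 3, control 6, PPHN 7, PPHN 9 and PPHN 12 had oar-miR-143 at 104433 to 301222 CPM, and bta-miR-199b was at 5.73 to 308 CPM there, from 25 to 1445 reads. The other 6 libraries had oar-miR-143 at 2157 to 18366 CPM, and bta-miR-199b was at 0 to 1.34 CPM, from 0 to 5 reads. The 2 ranges of bta-miR-199b do not meet. The same held for oar-miR-133, at 46.1 to 195 CPM in the first 6 libraries and 1.62 to 30.5 CPM in the other 6. It held too for rno-miR-133c (10.7 to 55.6 against 1.00 to 10.2 CPM) and dre-miR-101a (38.1 to 45.7 against 28.0 to 35.1 CPM). The division is thus not particular to bta-miR-199b, and the share of all tested entries that follow it was not counted. The division was made after the values were seen and carries no test. Within the first 6 libraries the levels were not proportional: control 6 had the highest oar-miR-143 and the lowest bta-miR-199b.

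Over the same 2 sets, oar-miR-199a-3p overlapped, at 1967 to 8334 CPM in the miR-143-rich libraries and 55.4 to 2131 CPM in the others. Control 2 had as little oar-miR-143 (2210 CPM) as PPHN 8 (2157 CPM) and PPHN 11 (2388 CPM). Its oar-miR-199a-3p level was 2131 CPM and its bta-miR-214 level 83.1 CPM, both inside the range of the other controls. The smooth muscle miRNA ssc-miR-145-5p, from the miR-143 cluster, was at 47.8 to 223 CPM in the first set and 1.00 to 5.65 CPM in the second. The part of other cell types in these levels was not tested, and in bulk libraries fewer cells of a type and less RNA per cell cannot be told apart.

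**Figure D2:**
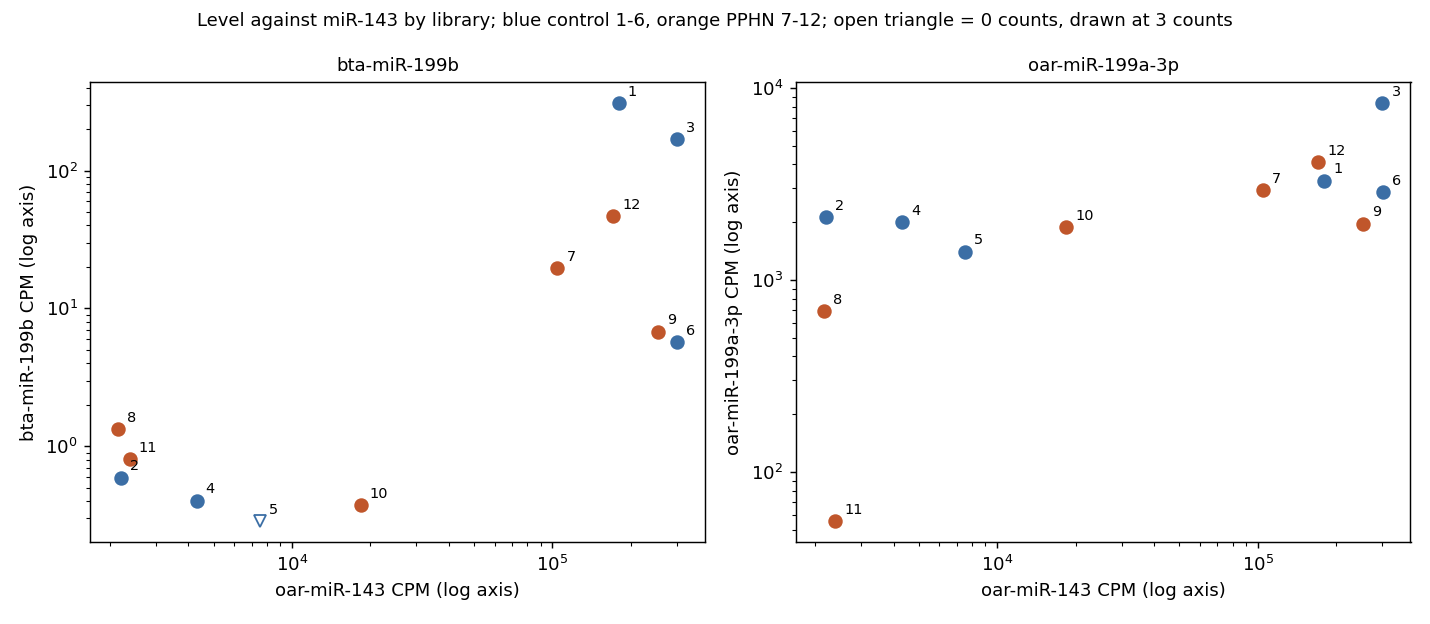
Level of bta-miR-199b (left) and oar-miR-199a-3p (right) against oar-miR-143, each in CPM on log axes, 1 point per library with its number, blue for control and orange for PPHN. For bta-miR-199b the 6 miR-143-rich libraries lie at 5.73 CPM or more and the other 6 at 1.34 CPM or less (open triangle, 0 counts drawn at 3 counts), whereas for oar-miR-199a-3p the sets overlap and PPHN 11 (55.4 CPM) stands apart.

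Ratios between entries of a library do not depend on scaling. The counts of oar-miR-199a-3p were 25.1 times those of bta-miR-214 at the median of the control libraries, with a range of 19.7 to 27.8. PPHN 7, PPHN 9 and PPHN 10 lay inside this range, at 25.7, 27.6 and 21.2. PPHN 12 lay below it at 14.8 (exact 95% interval 14.0 to 15.7). PPHN 8 lay above it at 82.3 (55.6 to 128), and PPHN 11, with 137 reads against 0, had a ratio of at least 45.7 when 3 counts are set for the 0. In PPHN 8 and PPHN 11, miR-214 was therefore lower than the miR-199 3p level of the same library would give at any control ratio.

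Between the groups, this ratio did not pass an exact two-sided permutation test of the log2 ratio of counts plus 1. The mean was 5.20 ± 1.24 in PPHN and 4.62 ± 0.17 in control (SD, n = 6; exact permutation p = 0.359 over 924 assignments, adjusted p = 0.359 over the 2 ratios tested). The spread within PPHN was the larger one, since PPHN 8, PPHN 11 and PPHN 12 lay on both sides of the control values. The PPHN 11 value of 7.11 depends on the added count, since bta-miR-214 had 0 reads there. Without PPHN 11 alone, the difference between the group means went from 0.58 to 0.20. Without control 2, PPHN 8 and PPHN 11, the difference turned from 0.58 to -0.17 (exact permutation p = 0.5).

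The arms of miR-214 kept a steady proportion. The counts of bta-miR-214 were 2.44 to 3.11 times those of hsa-miR-214-5p in control and 2.66 to 3.16 times in PPHN 7, PPHN 9, PPHN 10 and PPHN 12. PPHN 8 was at 1.92, but with 25 and 13 reads its exact 95% interval of 0.947 to 4.09 includes every control value. PPHN 11 had 0 reads of both arms and gives no ratio. The log2 ratio averaged 1.19 ± 0.64 in PPHN and 1.498 ± 0.12 in control (SD, n = 6; exact permutation p = 0.344, adjusted p = 0.359). That mean includes PPHN 11 at a log2 ratio of 0, which the added count alone sets, and without control 2, PPHN 8 and PPHN 11 the difference turned from -0.31 to 0.05 (exact permutation p = 0.556).

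**Figure D3:**
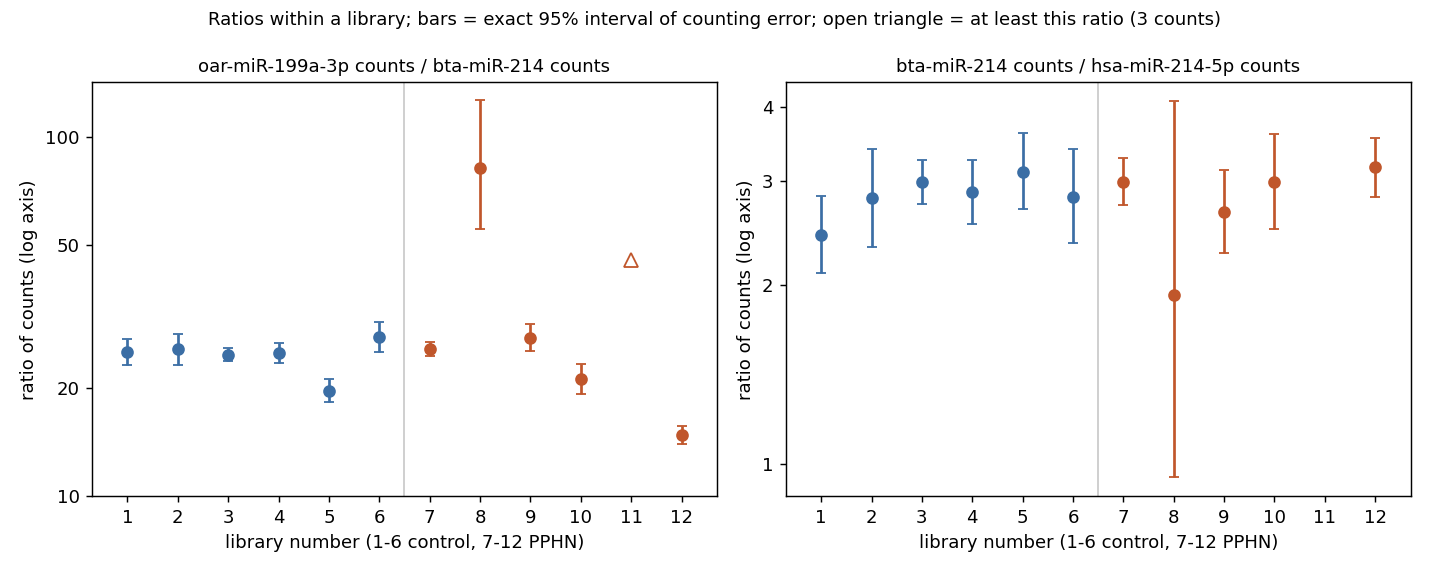
Ratio of counts within each library (log axis) for oar-miR-199a-3p over bta-miR-214 (left) and bta-miR-214 over hsa-miR-214-5p (right), blue for control libraries 1 to 6 and orange for PPHN libraries 7 to 12, with exact 95% intervals of counting error. On the left, PPHN 8 (82.3) and the lower bound for PPHN 11 (45.7, open triangle) lie above the control range of 19.7 to 27.8 and PPHN 12 (14.8) below it; on the right, PPHN 11 has no point because both arms had 0 reads.

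One further miRNA of the locus is bta-miR-3120, which in human lies on the strand opposite to miR-214, inside DNM3. It was rare, with 14 to 40 reads in control libraries and 0 to 57 in PPHN libraries. Its level ran from 1.62 to 6.41 CPM over the controls and from 0 to 6.18 CPM over the PPHN libraries. The highest level was again in control 3, and PPHN 8 and PPHN 11 held 2 and 0 reads. The log2 fold change of bta-miR-3120 was -0.47 (SE 0.67; edgeR adjusted p = 0.906).

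The design compares PPHN with control, and here no entry of the family passed the test. All 8 entries had a lower fitted mean in PPHN, where 54.5% of all tested entries did, and their median log2 fold change was -0.82 against -0.08 over all 468. By edgeR's quasi-likelihood test, 0 of 8 had a Benjamini-Hochberg adjusted p under 0.05, as did 0% of all tested entries, and 0 of 8 had an unadjusted p under 0.05, against 10.5% of all. DESeq2 gave 0 of 8 past its adjusted threshold (2.58% of all entries), and limma-voom gave 0 of 8 (0% of all). The groups overlapped for 8 of 8 entries, and 1.28% of all tested entries had groups that did not overlap. Several of the 8 entries carry the name of the same miRNA, so their shared direction is not 8 separate observations.

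The level of oar-miR-199a-3p averaged 1940 ± 1473 CPM over the PPHN libraries against 3343 ± 2534 CPM over the controls (SD, n = 6), 1.72-fold lower with a log2 fold change of -0.78 (SE 0.74; edgeR adjusted p = 0.780). For bta-miR-3604 the log2 fold change was -0.85 (SE 0.72; edgeR adjusted p = 0.764). The level of bta-miR-214 averaged 93.4 ± 101 CPM over the PPHN libraries against 134 ± 101 CPM over the controls, a log2 fold change of -0.52 (SE 1.00; edgeR adjusted p = 0.920). These differences were no larger than the spread between libraries.

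The other miR-214 entries ranged from -0.56 (cgr-miR-214-3p, SE 0.90) to -1.36 (ola-miR-214, SE 0.87) on the log2 scale. The entry bta-miR-199b had the farthest log2 fold change, at -2.67 (SE 1.81; edgeR adjusted p = 0.652), with means of 12.6 ± 18.3 CPM (PPHN) and 80.7 ± 130 CPM (control). Its medians ran the other way, at 4.06 CPM (PPHN) and 3.16 CPM (control), and with limma-voom its log2 fold change was 1.38 (SE 2.16). In the authors' deposited table the edgeR log2 fold changes of oar-miR-199a-3p, bta-miR-214 and bta-miR-199b were -0.79, -0.52 and -2.67, with q-values of 0.765, 0.916 and 0.649.

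Single libraries moved the size of the family's difference. Without control 3 the log2 fold change of oar-miR-199a-3p was -0.39 (SE 0.70), and without PPHN 11 it was -0.53 (SE 0.52). Without control 2, PPHN 8 and PPHN 11 it was -0.43 (SE 0.51), and that of bta-miR-214 was -0.10 (SE 0.57). On the other side, without PPHN 12 the values were -1.16 (SE 0.77) and -1.25 (SE 1.03). The log2 fold change of bta-miR-199b was -1.64 (SE 1.75) without control 1 and -3.76 (SE 2.03) without PPHN 12, and that of ola-miR-214 was -2.36 (SE 0.82) without PPHN 12.

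**Figure D4:**
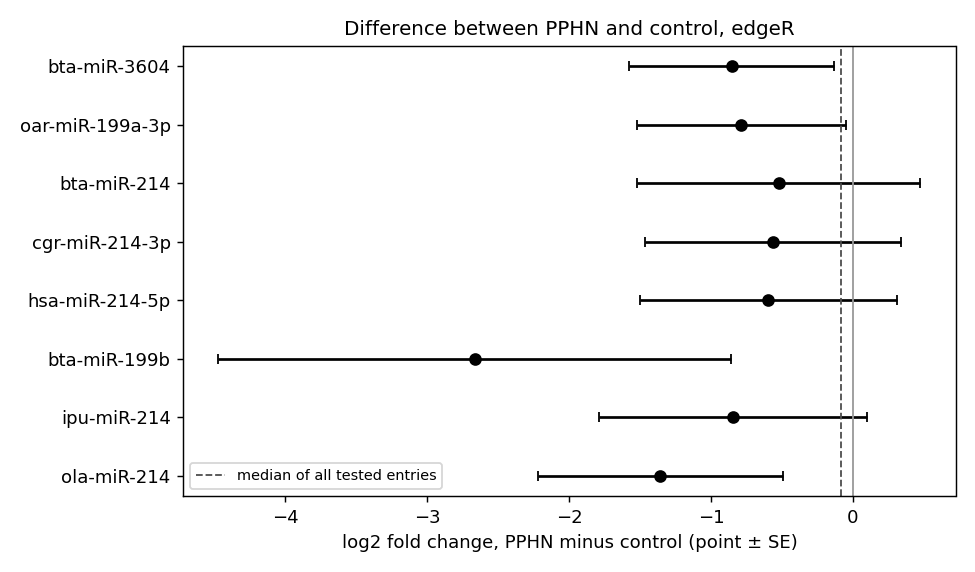
Log2 fold change of PPHN minus control for each entry (point) with its SE (bar) from edgeR's fit over 468 entries. All 8 points lie below 0 and below the median of all tested entries (dashed, -0.08), from -0.52 for bta-miR-214 to -2.67 for bta-miR-199b, and none passed the adjusted threshold.

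Most of the spread of the abundant entries came from PPHN 8 and PPHN 11. The within-group SD of log2 CPM was 1.73 for oar-miR-199a-3p and 2.64 for bta-miR-214 with all libraries, and 0.73 and 0.84 without these 2 libraries, an alternative chosen after seeing the data. The value of PPHN 11 for bta-miR-214 is set by the prior count, since it had 0 reads. Of all tested entries, 81.0% had a smaller SD than oar-miR-199a-3p and 96.8% a smaller one than bta-miR-214 with all libraries, against 56.4% and 64.3% without the 2. The median over all 468 entries was 0.72 and 0.64. For bta-miR-199b the SD was 3.50 with and 3.57 without PPHN 8 and PPHN 11.

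Other miRNAs of fibroblasts and fibrosis were set beside the family. Of 7 entries of the fibroblast miRNAs miR-140, miR-152, miR-22 and miR-10a, 3 were higher and 4 lower in PPHN, with a median log2 fold change of -0.01 and 0 past the adjusted threshold. The most abundant, oar-miR-22-3p, averaged 98581 ± 7915 CPM (PPHN) and 81563 ± 23946 CPM (control; SD, n = 6). Among them dre-miR-140-3p, from an intron of WWP2 in human, chosen after its values were seen, ran from 225 to 814 CPM over the controls and from 229 to 359 CPM over the PPHN libraries (log2 fold change -0.88, SE 0.33; edgeR adjusted p = 0.399). PPHN 8 was at 259 CPM and PPHN 11 at 326 CPM. The other arm, hsa-miR-140-5p, had a log2 fold change of -0.26 (SE 0.36). On the higher side of the same list, dme-miR-10-3p was at 1.91 (SE 0.86; edgeR adjusted p = 0.430) and oar-miR-10a at 0.90 (SE 0.79). The summed level of these 7 entries ran from 61135 to 120916 CPM over the controls and from 88415 to 122407 CPM over the PPHN libraries.

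Of 10 entries of miRNAs tied to fibrosis and TGF-beta signalling, among them miR-21, miR-29 and miR-192, 8 were higher and 2 lower. Of all 468 tested entries, 213 were higher. The median log2 fold change of the 10 was 0.11, with 0 past the adjusted threshold. The 2 lower entries were ipu-miR-155 (-0.84, SE 0.41) and rno-miR-27b-5p (-0.49, SE 0.33). The 8 higher entries ran from 0.07 (oar-miR-27a, SE 0.24) to 0.67 (oar-miR-29b, SE 0.42), with bta-miR-192 at 0.62 (SE 0.24). Several were close to 0, also ssc-miR-24-1-5p at 0.09, bta-miR-24 at 0.10 and oar-miR-200b at 0.13 (SE 1.74). The most abundant of the 10 was oar-miR-21, a miRNA raised in fibrotic tissue. Its means were 220369 ± 67642 CPM (PPHN) and 173559 ± 34301 CPM (control; SD, n = 6; edgeR adjusted p = 0.591). Of the 3 smooth muscle entries (miR-143 and miR-145), 1 was higher and 2 lower, and of the 3 miR-126 entries likewise 1 and 2, with 0 past the threshold in each. The summed smooth muscle level ran from 2212 to 301452 CPM over the controls and from 2158 to 253906 CPM over the PPHN libraries. The smooth muscle list also named miR-1, miR-133a and miR-133b, for which no entry was found. Outside the list, oar-miR-133 and rno-miR-133c were both higher in PPHN. Their log2 fold changes were 0.59 (SE 1.06) and 0.10 (SE 0.98).

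Both blood entries (miR-451 and miR-486) were lower, with a summed level of 69.0 to 900.4 CPM over the controls and 15.4 to 203 CPM over the PPHN libraries. The epithelial list was read from 1 entry, oar-miR-200b, which the fibrosis list also holds. It was at 0 to 398 CPM over the controls and 29.5 to 150 CPM over the PPHN libraries. None of these entries passed the adjusted threshold.

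The entries most like bta-miR-3604, the family's entry of highest mean, were ranked by Spearman's rho of log2 CPM over the 12 libraries among 318 other entries with a mean of at least 10 CPM. They were hsa-miR-28-3p (rho 0.88), bta-miR-28 (0.80), ssc-miR-145-5p (0.79), rno-miR-133c (0.77) and oar-miR-133 (0.75). These are the 5 highest of 318 and describe likeness only. The libraries share their totals and scaling. The levels of hsa-miR-28-3p moved far less than the family did, with PPHN 11 lowest at 8861 CPM and PPHN 12 highest at 21833 CPM, while oar-miR-133, known from muscle, was lowest in PPHN 11 (1.62 CPM) and highest in PPHN 12 (195 CPM).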

How the data were processed

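Total RNA went into TruSeq small RNA libraries, per the labels' protocols. Raw counts of each entry in the 6 control and 6 PPHN libraries were deposited by the authors, per the file headers. Per the submitters' processing notes, Trim Galore 0.2.5 and Bowtie 1.1.1 were used; settings, miRNA reference and genome build: not given in the sources used here. Their p-values, q-values and log2 fold changes (DESeq, DESeq2, edgeR) were deposited too, per the file headers. Listed entries have at least 143 counts in all, and totals over them are not the sequencing depth. How reads were shared between near-identical entries can raise or lower any single entry.

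From the counts, edgeR 4.0.16 (quasi-likelihood test, robust, TMM scaling, filterByExpr) in R 4.3.3 tested 468 entries, all 8 of the family among them, with Benjamini-Hochberg adjustment over all of them and a threshold of 0.05. SE was the log2 fold change over the square root of F. CPM put the listed entries of each library on 1 common total after TMM scaling, and log2 CPM used a prior count of 2. Levels in single libraries carry exact (Clopper-Pearson) 95% intervals and floors of 3 counts, which cover counting error only. Ratios added 1 count. DESeq2 1.42.0 and limma-voom (limma 3.58.1) were alternatives, with other scalings and filters and with libraries left out. Scripts were tested on simulated data. Members and lists were chosen with earlier results of these data known. The rule for names took all 8 entries, the most abundant entry of each list, and the 5 entries most like the family's entry of highest mean. Entries named beyond it, dre-miR-140-3p among them, were chosen after their values were seen.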

Additional observations from a re-analysis of the deposited data

Results flagged for a closer look

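By Dixon's test on CPM, 7 of 16 groups of 6 libraries (8 entries, 2 groups each) had a library that stood apart. The usual rate of about 5% by chance holds for normally distributed values. CPM without logs need not be so distributed, and the test was not run on log2 CPM. The 7 are therefore not read as an excess over chance. Several entries carry the name of the same miRNA, so these are not 7 separate signals. In control 3, 6 entries stood apart on the high side. There bta-miR-3604 was at 10191 CPM against 4480 CPM in the next control, oar-miR-199a-3p at 8334 CPM against 3294 CPM, and bta-miR-214 at 336 CPM against 131 CPM. The same library had cgr-miR-214-3p at 236 CPM against 97.1 CPM, hsa-miR-214-5p at 112 CPM against 53.6 CPM, and ipu-miR-214 at 17.0 CPM against 7.03 CPM. In PPHN 12, ola-miR-214 was at 5.74 CPM against 1.70 CPM in the next PPHN library, from 26 and 9 reads.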

How the results depend on the processing

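No paired analysis was possible because the replicate numbers 1 to 6 and 7 to 12 are not shared between the groups. The 8 entries stayed below 0 under RLE and upper-quartile scaling, without the miR-143 entries, with DESeq2 and with no filter. They also stayed below 0 with each library left out. With limma-voom bta-miR-199b turned to 1.38 and the other 7 entries were lower in PPHN. That method also moved the size: bta-miR-214 was at -1.80 (SE 1.28), and the median of the 8 was -1.29 against -0.82 in the main fit. With the filter of 10 CPM in 6 libraries, 5 entries were tested and 5 were lower, because fewer passed. No setting brought an entry past the adjusted threshold. At an unadjusted p under 0.05 there was 1 (ola-miR-214) without PPHN 12 and 0 with each other library left out. Over all entries DESeq2 called 12, and leaving out a library gave 0 to 1 calls, the 1 without PPHN 8. The count at an unadjusted p under 0.05 was 49, 32 to 59 with a library left out, and 27 without control 2, PPHN 8 and PPHN 11. With 1 library left out, the difference in the log2 ratio of bta-miR-214 over hsa-miR-214-5p ran from -0.41 to -0.08 and that of oar-miR-199a-3p over bta-miR-214 from 0.20 to 0.84; without control 2, PPHN 8 and PPHN 11 they turned to 0.053 and -0.17, and the cause was not tested. Depth limits ola-miR-214 and ipu-miR-214, and miR-214 in PPHN 11.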

Other observations

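The entries most like bta-miR-199b were looked up after its pattern was seen, among 318 entries outside the family. By Spearman's rho of log2 CPM over 12 libraries they were dre-miR-101a (0.80), bta-miR-3596 (0.76), oar-miR-133 (0.71), rno-miR-133c (0.69) and bta-miR-335 (0.69). The entries oar-miR-133 and rno-miR-133c, of a muscle miRNA family, were thus near the top for both bta-miR-3604 and bta-miR-199b. The level of dre-miR-101a moved little, from 28.0 to 45.7 CPM, while bta-miR-199b ran from 0 to 308 CPM. Its ranges over the miR-143-rich libraries and the others did not meet either, at 38.1 CPM or more against 35.1 CPM or less for dre-miR-101a.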
